A study of Homo sapiens with 9 samples.

Results

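Amino acid transporter genes were examined by RNA sequencing after LINC00673 knockdown. The 10 genes are SLC7A11, SLC7A5, SLC3A2, SLC7A1, SLC1A5, SLC1A4, SLC38A1, SLC38A2, SLC6A9 and SLC43A1, which encode carriers of the plasma membrane or a subunit of them, and they were found by gene symbol. The rule uses no measured value, but the set was chosen with earlier results of these data known. All 10 were among the 19930 genes with values and among the 12884 genes tested. The study asked how the long noncoding RNA LINC00673 acts in breast cancer cells. Libraries were made from total RNA of MDA-MB-453, an established human breast cancer line, harvested with Trizol 48 h after transfection with Lipofectamine and sequenced on the BGISEQ-500 platform. There were 3 groups of 3 libraries: cells given a control siRNA (si-NC, labelled X453_NC), cells given siRNA 1 (si-LINC00673-1, labelled X453_1) and cells given siRNA 2 (si-LINC00673-2, labelled X453_2). All 3 groups were transfected, the numbers of the siRNAs follow the labels of the libraries, and LINC00673 itself was not analysed here, so the degree of knockdown is not given. The labels do not say whether the 3 libraries of a group, marked without a suffix, r1 and r2, came from separate cultures, so the P values measure the spread between these libraries, which may be technical. Values of single libraries are given in that order.

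The values are FPKM (mapped fragments corrected for transcript length and library depth), a level per length that allows genes to be compared with each other. The steps between low FPKM values gave an estimated depth of 22.9 to 27.9 M fragments per library. It was 26.1 to 27.9 M with si-NC, 24.6 to 26 M with siRNA 1 and 22.9 to 25.3 M with siRNA 2. By this estimate each si-NC library was deeper than each knockdown library. Within a group the libraries were alike (r of log2 values from 0.9945 to 0.9959), and between groups r ran from 0.9552 to 0.9903. Some markers of the labelled line were present and others were not. KRT8 lay between 3011 and 3773 FPKM, KRT18 between 1680 and 2509, FGFR4 between 17.9 and 33.1 and ERBB2 between 11.8 and 17.8. However, the luminal factor FOXA1 was at 0.00 to 0.04 FPKM in every library and GATA3 at 0.41 to 0.88. ESR1 stayed at or below 0.02 FPKM, and the basal keratins KRT5 and KRT14 at or below 0.63 and 0.25. KRT18 fell by 0.46 and 0.48 on the log2 scale with siRNA 1 and siRNA 2, and KRT8 was not called. Mean FPKM with si-NC, siRNA 1 and siRNA 2 was 31.9, 21.8 and 19.1 for FGFR4 and 17.6, 14.7 and 12.6 for ERBB2. For GATA3 the means were 0.433, 0.767 and 0.643. HNF4A, a transcription factor of liver and gut epithelium, was at 42.3 to 54.4 FPKM, and VIL1, a cytoskeletal protein of the intestinal brush border, at 80.7 to 119.9; both were chosen after their values were seen. VIL1 fell by 0.43 and 0.47 on the log2 scale, and HNF4A was not called. The cells are therefore called by their label only. Of 5 markers of blood, fibroblast and endothelial cells, PTPRC, COL1A2 and PECAM1 stayed at or below 0.12 FPKM, while CD68 and COL1A1 rose with both siRNAs. The summed FPKM of these 5 ran from 36.8 to 38.3 in the control, from 51.9 to 55.5 after siRNA 1 and from 61.0 to 66.4 after siRNA 2, and their part in the results below was not tested.

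Most amino acids enter cells through carriers of a few families. SLC7A5 (LAT1) and SLC7A11 (xCT) are light chains that work as exchangers only when bound to the heavy chain SLC3A2, which brings them to the cell surface. SLC7A5 takes up leucine and other large neutral amino acids in exchange for glutamine, and SLC7A11 takes up cystine in exchange for glutamate. SLC1A5 (ASCT2), SLC38A1 (SNAT1) and SLC38A2 (SNAT2) carry glutamine, alanine, serine and other small neutral amino acids together with sodium. SLC1A4 (ASCT1) carries serine, alanine and cysteine, also with sodium. SLC7A1 (CAT1) takes up arginine and lysine, SLC6A9 (GLYT1) takes up glycine, and SLC43A1 (LAT3) carries leucine and its kin without sodium. Several of these genes are known targets of ATF4, the transcription factor that cells make when amino acids run short, which binds C/EBP-ATF response elements.

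The core of this element, TGATGNAA, was looked for on both strands of the RefSeq promoter windows (GRCh38.p14, from 250 bases before to 50 bases after each annotated start). Windows were given for 9 of the 10 genes, SLC7A11 being without an entry. The core was present in 5 of the 16 windows of these genes, and in 3.62% of all 35116 windows. Counted by gene, 5 of the 9 genes held it, and 4.46% of all 27305 genes. The shares by gene were not adjusted for the number of windows of each gene. The 30 bases around each match are shown 5′ to 3′ on the strand of the gene, with the 8 matched bases in capitals, since they are the part that these genes share.
SLC1A4: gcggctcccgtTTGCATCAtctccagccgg
SLC3A2: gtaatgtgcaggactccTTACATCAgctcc
SLC38A1: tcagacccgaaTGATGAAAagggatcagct
SLC7A1: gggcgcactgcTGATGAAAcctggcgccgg
SLC1A5: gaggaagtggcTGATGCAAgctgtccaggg
The SLC1A4 stretch (chr2:64989381-64989410, plus strand) and the SLC3A2 stretch (chr11:62881719-62881748, plus strand) hold the core on the strand opposite to the gene. The SLC38A1 stretch (chr12:46266502-46266531), the SLC7A1 stretch (chr13:29595663-29595692) and the SLC1A5 stretch (chr19:46784893-46784922) lie on the minus strand, like their genes, and hold it in the direction of the gene. The SLC1A5 match lies before 1 of its 3 annotated starts, and SLC1A4, SLC3A2 and SLC38A1 also had windows without a match. No match was found in the windows of SLC7A5, SLC38A2, SLC6A9 and SLC43A1. Among the 8967 tested genes with a window, 2.46% held the core, and among the 1156 of these that were lower with both siRNAs 2.42% did. A match describes these letters only, and no binding was measured here.

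With si-NC, the levels of the 10 genes spanned from 413 to 2.34 FPKM. SLC1A5 was the highest at 413 ± 16.9 FPKM (SD, n = 3), which placed it at rank 158 of all genes. SLC38A2 followed at 168 ± 6.89, SLC3A2 at 136 ± 5.68 and SLC7A5 at 98.4 ± 3.68 FPKM. SLC38A1 (53.2 ± 2.25), SLC43A1 (25.95 ± 0.242) and SLC7A1 (21.8 ± 0.450) formed the middle of the range, and SLC1A4 (6.73 ± 0.0551), SLC7A11 (6.18 ± 0.257) and SLC6A9 (2.34 ± 0.321, rank 10945) its lower end. In the si-NC libraries the ranges of no neighbours in this order overlapped. In the knockdown libraries the ranges of SLC43A1 and SLC7A1 overlapped with both siRNAs, and SLC7A11 lay above SLC1A4.

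**Figure D1:**
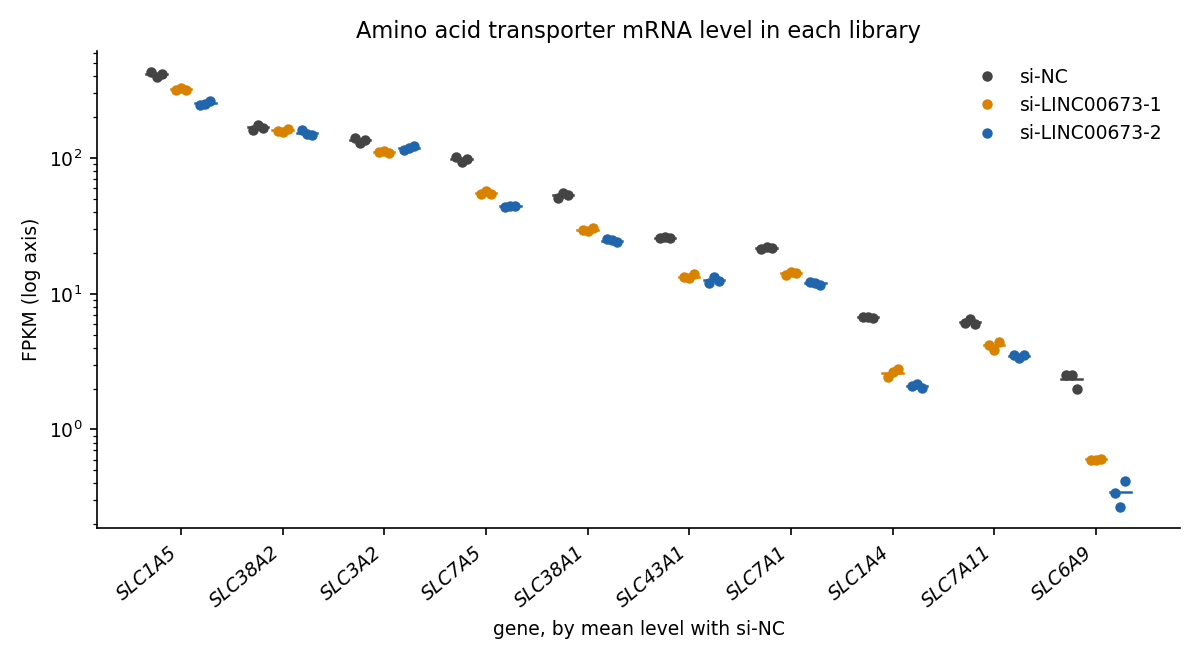
FPKM of the 10 transporter genes (vertical log axis) in each of the 9 libraries; points are libraries, short lines are group means of 3, and genes are ordered by their mean with si-NC. For 9 genes the 3 libraries of each siRNA lie below the 3 si-NC libraries, and for SLC38A2 only those of si-LINC00673-2 do.

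Compared with si-NC, 7 of the 10 genes fell with si-LINC00673-1 and 8 fell with si-LINC00673-2, and none rose. A gene was called when its fold change was at least 1.3, which is 0.38 on the log2 scale, with P of at most 0.05 in limma on log2(FPKM + 1). With these criteria, 15.6% of the 12884 tested genes were lower and 11.1% higher with si-LINC00673-1, and 23.1% were lower and 11.0% higher with si-LINC00673-2. Of the genes called with si-LINC00673-2, 67.8% were lower, and 53.2% once each library was divided by its median ratio to the others. The median log2 fold change over the 10 genes came to -0.70 for si-LINC00673-1 and -0.91 for si-LINC00673-2, compared with 0.003 and -0.095 for all tested genes. The 3 siRNA libraries lay wholly below the 3 si-NC libraries for 9 genes with si-LINC00673-1 and for all 10 with si-LINC00673-2, as they did for 35.1% and 46.1% of all tested genes. Both comparisons used the same 3 si-NC libraries and are thus not independent of each other. SLC6A9 reached the expression filter, a mean of 1 FPKM over the 9 libraries, only through its si-NC level (its mean over the 6 knockdown libraries was 0.473 FPKM), and without it 6 and 7 of 9 genes were lower. A lower FPKM of whole cultures cannot tell less RNA per cell from fewer cells that express the gene.

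**Figure D2:**
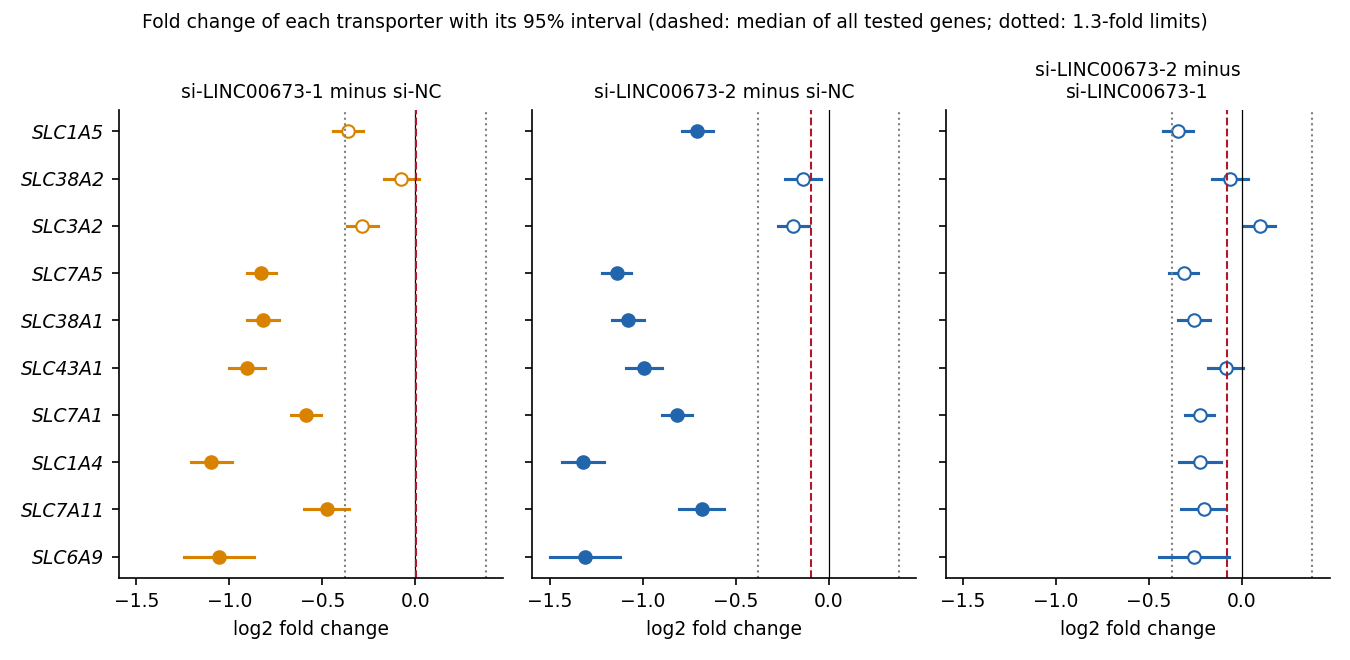
Log2 fold change of each gene (horizontal axis) with its 95% interval from limma, for si-LINC00673-1 against si-NC, si-LINC00673-2 against si-NC and si-LINC00673-2 against si-LINC00673-1. Genes called are drawn filled and the others hollow. With both siRNAs SLC3A2 and SLC38A2 are hollow and lie nearest to 0.

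Of the 4 tested light chains that need SLC3A2, the leucine carrier SLC7A5 (Gene ID 8140, chr16:87863622-87903105 on GRCh37.p13) fell the most. Its FPKM was 101.58, 94.38 and 99.26 with si-NC, 53.93, 56.77 and 54.38 with si-LINC00673-1, and 43.45, 44.14 and 44.66 with si-LINC00673-2. The groups did not overlap, and both knockdown groups lay far below the control. The log2 fold change was -0.83 (SE 0.0347, adjusted P = 7.3e-08) with si-LINC00673-1 and -1.14 (adjusted P = 4.7e-09) with si-LINC00673-2, that is, 55.9% and 44.8% of the control level remained. SLC7A5 has near-identical pseudogene copies that were not analysed here, so that reads may have been shared with them.

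The cystine carrier SLC7A11 (chr4:139085248-139163532), which feeds glutathione synthesis, was lower by a smaller factor. It was at 6.04, 6.48 and 6.03 FPKM with si-NC, 4.20, 3.86 and 4.44 with si-LINC00673-1, and 3.51, 3.36 and 3.56 with si-LINC00673-2. No library of a knockdown group reached the lowest control library. The log2 fold changes were -0.48 (SE 0.0536, adjusted P = 3.4e-05) and -0.68 (adjusted P = 2.1e-06). Its transcripts are long, and these levels rest on an estimated 778 to 1615 fragments per library, reckoned with its longest transcript.

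The heavy chain SLC3A2 (CD98hc, chr11:62623484-62656355) did not meet the criteria with either siRNA. Its FPKM was 141.34, 130.07 and 136.97 with si-NC, 111.30, 113.50 and 109.91 with si-LINC00673-1, and 114.62, 119.66 and 123.61 with si-LINC00673-2. Each knockdown library lay below each control library, so the difference exceeded the spread between libraries while its size stayed under the 1.3-fold limit. The log2 fold changes were -0.28 (95% interval -0.37 to -0.20, adjusted P = 0.00011) and -0.19 (-0.27 to -0.10, adjusted P = 0.0013). In 32.3% and 44.8% of all tested genes the level was lower at an adjusted P of at most 0.05 without a fold limit, and 9 and 10 of the transporters were. Once each library was divided by its median ratio to the others, the fold change of SLC3A2 with si-LINC00673-2 was -0.08 (adjusted P = 0.095), and 8 of the transporters stayed lower at that threshold with this siRNA.

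The ratio of the heavy chain to its light chains separated the groups. Besides SLC7A5 and SLC7A11, the light chains SLC7A8 (LAT2) and SLC7A6 (y+LAT2) were expressed, at 22.5 ± 0.294 and 18.3 ± 0.447 FPKM with si-NC, and both remained uncalled with either siRNA. SLC7A7 and SLC7A10, at 0.56 and 0.15 FPKM with si-NC, were not tested but entered the sum. The ratio of SLC3A2 to the summed FPKM of these 6 light chains was 0.947, 0.910 and 0.937 with si-NC, 1.11, 1.09 and 1.08 with si-LINC00673-1, and 1.32, 1.41 and 1.40 with si-LINC00673-2. The ranges of the 3 groups did not overlap, with the control below 1 and both knockdown groups above it. On the log2 scale the mean ratio was higher by 0.23 with si-LINC00673-1 and by 0.56 with si-LINC00673-2, each with an exact two-sided permutation P = 0.1, the smallest that 3 libraries against 3 allow. For SLC7A5 alone, SLC3A2 transcripts were 1.38 ± 0.0072 times as abundant with si-NC, 2.03 ± 0.0328 times with si-LINC00673-1 and 2.71 ± 0.0651 times with si-LINC00673-2 (SD, n = 3).

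**Figure D3:**
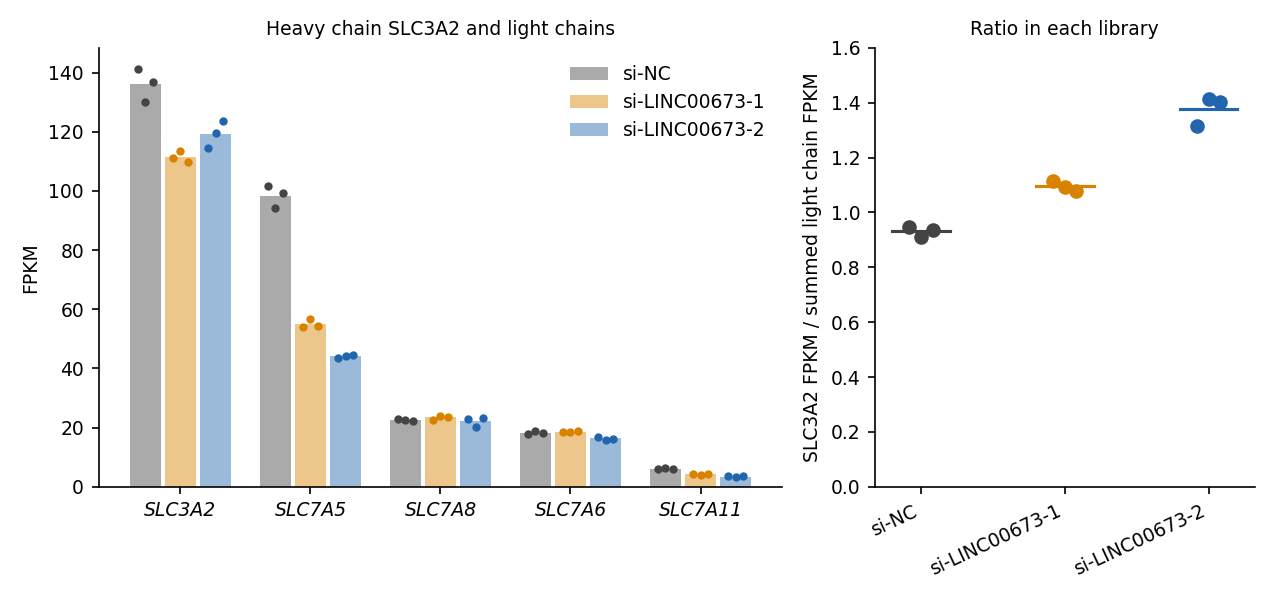
Left, FPKM of the heavy chain SLC3A2 and its 4 light chains above 1 FPKM (bars are means of 3 libraries, points are libraries). Right, SLC3A2 FPKM divided by the summed FPKM of 6 light chains in each library; the means are 0.931, 1.10 and 1.38 for si-NC, si-LINC00673-1 and si-LINC00673-2.

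The sodium-coupled exchanger SLC1A5 (chr19:47278140-47291842), a main route of glutamine, was the most abundant of the 10 genes in every library. Its FPKM was 427.81, 394.84 and 417.39 with si-NC, 317.52, 329.60 and 317.85 with si-LINC00673-1, and 245.09, 252.25 and 261.74 with si-LINC00673-2. The 3 groups did not overlap. The log2 fold change of -0.36 with si-LINC00673-1 (95% interval -0.44 to -0.28, adjusted P = 1.6e-05) was just under the limit, and without the si-NC library r1 it was -0.39 and the gene was called. With si-LINC00673-2 SLC1A5 fell by 0.71 on the log2 scale (SE 0.0364, adjusted P = 1.4e-07).

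Its relative SLC1A4 (chr2:65215579-65250999), a carrier of serine, alanine and cysteine, had the largest log2 fold changes of the 10 with 1 FPKM added, though not with 0.1 FPKM added, where those of SLC6A9 were larger. It was at 6.73, 6.79 and 6.68 FPKM with si-NC, 2.44, 2.65 and 2.77 with si-LINC00673-1, and 2.10, 2.17 and 2.01 with si-LINC00673-2. The control libraries lay close together and far above each knockdown library. The log2 fold changes were -1.10 (SE 0.05, adjusted P = 1.1e-07) and -1.32 (adjusted P = 1.9e-08), with 38.9% and 31.1% of the control FPKM remaining. With si-NC, SLC7A11 was at 0.918 ± 0.0314 of the SLC1A4 level, and with the siRNAs at 1.59 ± 0.133 and 1.66 ± 0.112 times that level.

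SLC38A1 and SLC38A2, neighbours on chromosome 12 that both take up glutamine with sodium, gave unlike values: SLC38A1 was called with both siRNAs and SLC38A2 with neither. SLC38A1 (chr12:46576838-46663208) was at 50.72, 55.13 and 53.70 FPKM with si-NC, 29.41, 29.15 and 30.52 with si-LINC00673-1, and 25.21, 24.87 and 23.89 with si-LINC00673-2. It fell by 0.82 and 1.08 on the log2 scale (SE 0.0388, adjusted P = 1.4e-07 and 1.4e-08), with no overlap between any of the groups. SLC38A2 (chr12:46751971-46766645) was at 162.44, 175.99 and 167.03 FPKM with si-NC, 158.52, 156.84 and 164.67 with si-LINC00673-1, and 161.93, 150.11 and 147.24 with si-LINC00673-2. The si-LINC00673-1 libraries overlapped those of si-NC, and the highest si-LINC00673-2 library lay only just below the lowest control. The log2 fold changes of SLC38A2 were -0.07 (95% interval -0.17 to 0.02, adjusted P = 0.16) and -0.14 (-0.23 to -0.04, adjusted P = 0.015), and it was not called. With the median ratio scaling the value for si-LINC00673-2 was -0.03 (adjusted P = 0.51), and it was -0.11 without the si-NC library r1 (adjusted P = 0.056) or without the si-LINC00673-2 library r2 (adjusted P = 0.058). After a correction for GC content, the value for si-LINC00673-1 was -0.12 (adjusted P = 0.0034). The ratio of SLC38A2 to SLC38A1 was 3.17 ± 0.0505 with si-NC, 5.39 ± 0.00761 with si-LINC00673-1 and 6.21 ± 0.197 with si-LINC00673-2, again without overlap (exact two-sided permutation P = 0.1, the smallest possible).

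The carrier of cationic amino acids SLC7A1 (chr13:30083551-30169825) works without SLC3A2, although it belongs to the family of SLC7A5. It was at 21.28, 22.16 and 21.88 FPKM with si-NC, 13.84, 14.48 and 14.11 with si-LINC00673-1, and 12.25, 11.97 and 11.57 with si-LINC00673-2. The groups were separate, and the log2 fold changes were -0.59 (SE 0.0356, adjusted P = 6.8e-07) and -0.82 (adjusted P = 4.6e-08).

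SLC43A1 (chr11:57252004-57283192), a sodium-independent carrier of leucine, isoleucine, phenylalanine and methionine, was at nearly the same level with both siRNAs. Its FPKM was 25.86, 26.22 and 25.76 with si-NC, 13.18, 13.03 and 13.95 with si-LINC00673-1, and 11.91, 13.22 and 12.50 with si-LINC00673-2. The 2 knockdown groups overlapped each other and lay well below the control. The gene fell by 0.91 and 0.99 on the log2 scale (SE 0.0428, adjusted P = 1.4e-07 and 4.4e-08).

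The glycine carrier SLC6A9 (chr1:44462155-44497164) was the least abundant of the 10 genes. It was at 2.53, 2.52 and 1.97 FPKM with si-NC, 0.60, 0.60 and 0.61 with si-LINC00673-1, and 0.34, 0.27 and 0.42 with si-LINC00673-2. The control libraries were far above all others, and the si-LINC00673-2 libraries lay below those of si-LINC00673-1. Its mean FPKM was 3.88-fold lower with si-LINC00673-1 and 6.82-fold lower with si-LINC00673-2, whereas the log2 fold changes on the log2(FPKM + 1) scale were -1.05 (SE 0.0841, adjusted P = 3.6e-06) and -1.31 (adjusted P = 5.9e-07), since the added 1 FPKM weighs more at low levels. With 0.1 FPKM added they were -1.79 and -2.47. These values rest on few fragments: an estimated 179 to 232 in each control library, 49 to 51 in those of si-LINC00673-1 and only 22 to 32 in those of si-LINC00673-2. On the deposited coordinates SLC6A9 overlaps CCDC24 on the other strand by 46 bases, where reads may not be told apart.

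Summed over the 10 genes, the transporter level was 946.3, 914.6 and 936.7 FPKM with si-NC, 704.9, 720.5 and 713.2 with si-LINC00673-1, and 620.4, 622.0 and 631.2 with si-LINC00673-2. The 3 groups were separate, and 76.4% and 67.0% of the control sum remained with si-LINC00673-1 and si-LINC00673-2 (exact two-sided permutation P = 0.1 for each, the smallest possible). The makeup of the sum also differed. SLC1A5 made up 44.3% ± 1.04 of the sum with si-NC, 45.1% ± 0.594 with si-LINC00673-1 and 40.5% ± 0.982 with si-LINC00673-2. SLC38A2 accounted for 18.1% ± 1.06, 22.5% ± 0.661 and 24.5% ± 1.43, and SLC3A2 for 14.6% ± 0.358, 15.7% ± 0.209 and 19.1% ± 0.567 (SD, n = 3). The share of SLC7A5 was 10.6% ± 0.211 with si-NC and 7.72% ± 0.140 and 7.06% ± 0.0487 with the siRNAs.

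**Figure D4:**
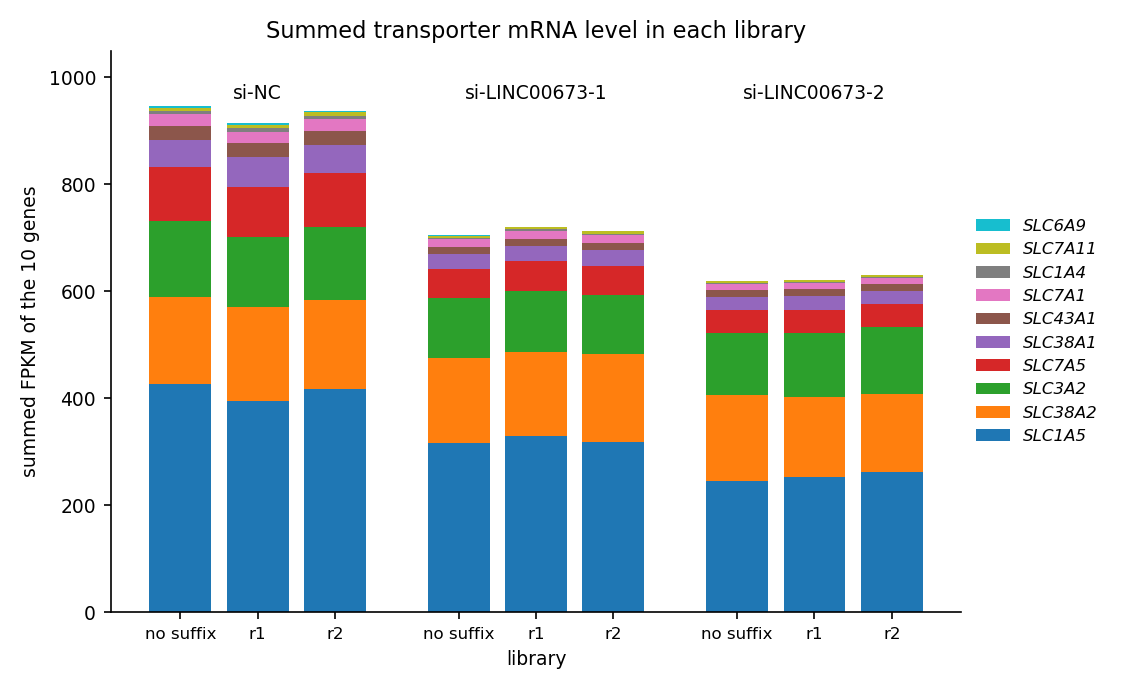
Summed FPKM of the 10 genes (vertical axis) in each of the 9 libraries, stacked by gene. The control sums are 915 to 946, those of siRNA 1 are 705 to 721 and those of siRNA 2 are 620 to 631, with SLC1A5 as the lowest and largest block in each.

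In the direct comparison of si-LINC00673-2 with si-LINC00673-1, none of the 10 genes met the criteria, which 7.64% of all tested genes did (5.45% lower, 2.19% higher). At an unadjusted P of at most 0.05 in limma and no fold limit, 8 of the 10 differed, compared with 52.0% of all tested genes. At an adjusted P of at most 0.05, 7 genes were lower with si-LINC00673-2, and 33.9% of all tested genes were. Of these, SLC1A5 had the largest difference, -0.35 on the log2 scale (95% interval -0.43 to -0.26), followed by SLC7A5 with -0.31 (-0.39 to -0.24). SLC3A2 was 0.10 higher with si-LINC00673-2 (0.01 to 0.18, adjusted P = 0.067). For SLC43A1 the difference was -0.09 (-0.18 to 0.01) and for SLC38A2 -0.06 (-0.16 to 0.03), and both intervals included 0. After the same median ratio scaling these became 0.01 and 0.04, that of SLC1A5 -0.24, that of SLC7A5 -0.21 and that of SLC3A2 0.20 (adjusted P = 0.0042). The median of all tested genes in this comparison was -0.081, and 0.010 with that scaling, and the share of lower genes among those called went from 71.3% to 38.0%.

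Genes outside the 10 that handle amino acids were taken from 6 lists compiled from general knowledge. Of 29 other plasma membrane amino acid transporters listed, 25 were matched by symbol to genes with values and 8 of these were expressed highly enough to be tested, and with each siRNA 1 was lower and 1 higher. SLC38A3 (SNAT3), a further glutamine carrier, fell by 0.55 and 0.99 on the log2 scale, and SLC6A6, the taurine transporter, rose by 0.57 and 0.58. SLC38A5, of the SLC38 family too, went the other way from SLC38A3 but stayed just under the fold limit. Its mean was 53.96 FPKM with si-NC and 69.67 and 69.35 with the siRNAs. The log2 fold changes in limma were 0.362 and 0.356 (adjusted P = 4.7e-06 and 3.5e-06). SLC38A5 was named after its values were seen. Over the 8 tested genes of this list, the median log2 fold change came to 0.06 for siRNA 1 and -0.14 for siRNA 2. Of 8 tested lysosomal and vesicular carriers, 1 was lower and 1 higher with si-LINC00673-1, and 2 were lower with si-LINC00673-2. Of 10 tested mitochondrial carriers, 2 were lower with each siRNA and 1 was higher with si-LINC00673-1. SFXN2 (log2 fold change -0.76 and -1.01) and SLC25A29 (-0.70 and -0.64), a mitochondrial carrier of basic amino acids, were lower with both siRNAs. Over all 145 tested SLC genes outside the 10 and these lists, 26 were lower and 14 higher with si-LINC00673-1, and 45 were lower and 11 higher with si-LINC00673-2. Among all 12884 tested genes, 15.6% were lower and 11.1% higher with si-LINC00673-1, and 23.1% lower and 11.0% higher with si-LINC00673-2. The lists were not compared with these shares by a test.

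The amino acids that these carriers import act on mTORC1, the kinase complex that licenses growth, and on ATF4. Of 29 tested genes of mTORC1 amino acid sensing, 2 were lower and 4 higher with si-LINC00673-1, and 5 were lower and 3 higher with si-LINC00673-2. The shares of all tested genes were 15.6% lower and 11.1% higher with si-LINC00673-1, and 23.1% and 11.0% with si-LINC00673-2. The genes named next are single genes and do not describe the list as a whole. MLST8, an mTORC1 subunit, fell by 0.67 and 0.78 on the log2 scale, and SESN2, a leucine sensor, by 0.47 and 0.48. RRAGA, a Rag GTPase that brings mTORC1 to the lysosome, rose by 0.58 and 0.76, and RPTOR, another mTORC1 subunit, by 0.40 and 0.51.

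Of 13 tested genes of the list of ATF4 and its feedback genes, which also holds SESN2, 5 were lower and 2 higher with si-LINC00673-1, and 6 were lower and 4 higher with si-LINC00673-2. All tested genes were lower in 15.6% and 23.1% and higher in 11.1% and 11.0% of cases with the 2 siRNAs. CHAC1, which degrades glutathione, fell by 1.86 and 2.70 on the log2 scale, and TRIB3, a pseudokinase that restrains ATF4, by 1.67 and 1.89. The transcription factors ATF5 (-1.25 and -1.10) and CEBPB (-0.89 and -0.80) were lower too. In contrast, ATF3 rose by 0.69 and 1.35, and PPP1R15A, a phosphatase subunit that restores translation, by 0.47 and 1.07. The mRNA of ATF4 itself was at 358 ± 8.07 FPKM with si-NC, 278 ± 5.12 with si-LINC00673-1 and 296 ± 2.14 with si-LINC00673-2. Each knockdown library lay below each si-NC library, as in 35.1% and 46.1% of all tested genes. The log2 fold changes in limma were -0.36 (adjusted P = 1.7e-06) and -0.27 (adjusted P = 7.9e-06). Both were under the fold limit, so ATF4 was not called. It was named here after its values were seen.

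Of 13 tested enzymes that act first on imported amino acids, 2 were lower and 2 higher with si-LINC00673-1, and 3 were lower and 1 higher with si-LINC00673-2. For all tested genes the shares were 15.6% lower and 11.1% higher with si-LINC00673-1, and 23.1% and 11.0% with si-LINC00673-2. ASNS, which makes asparagine, fell by 2.20 and 2.44 on the log2 scale, its level being 162 ± 5.40 FPKM in control cells, 34.4 ± 0.272 after siRNA 1 and 28.9 ± 0.564 after siRNA 2 (SD, n = 3). SHMT2, the mitochondrial enzyme that splits serine into glycine, fell by 0.67 and 0.65, and ODC1, the first enzyme of polyamine synthesis from ornithine, rose by 0.63 and 0.70.

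**Figure D5:**
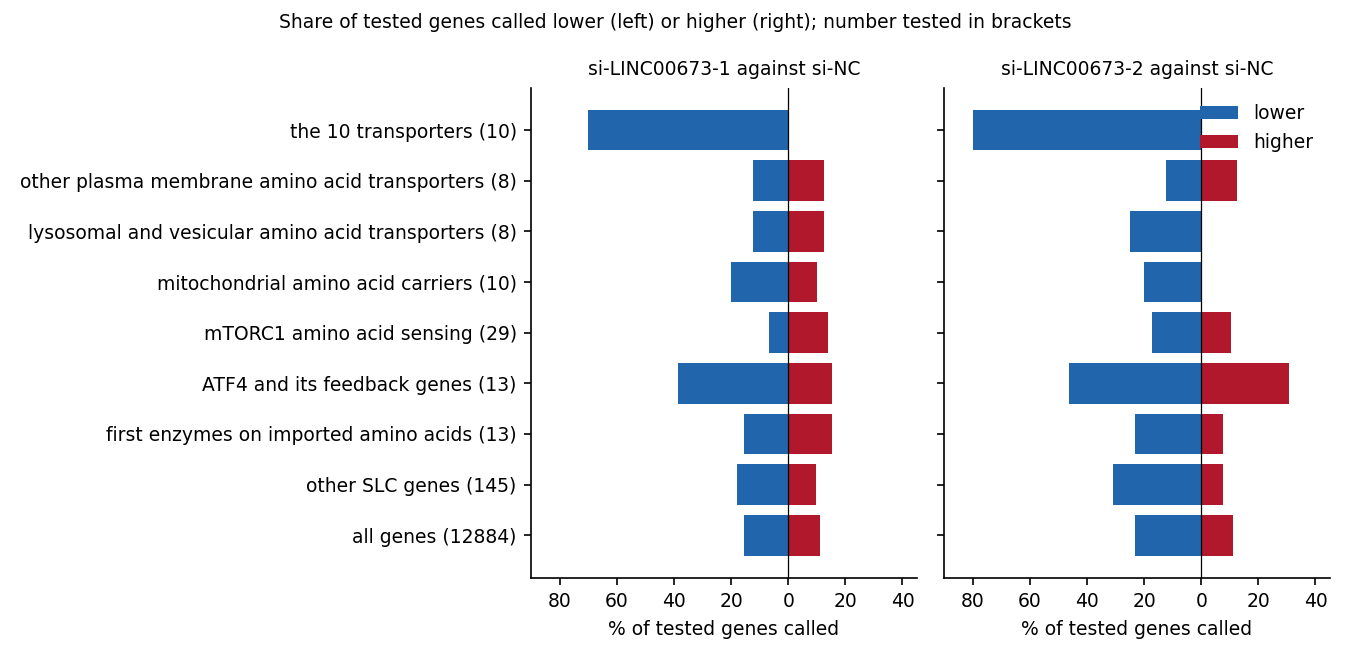
Percentage of tested genes called lower (left of 0) or higher (right of 0) with each siRNA against si-NC, for the 10 transporters, 6 lists of amino acid genes, other SLC genes and all genes; the number tested is in brackets. The 10 transporters have 70% and 80% lower and no gene higher, and all genes 15.6% and 23.1% lower.

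The gene outside the 10 whose pattern over the 9 libraries was most like that of a member was found by the Pearson correlation of log2(FPKM + 1), as a description. For SLC1A5 this was SLC16A5, a carrier of the monocarboxylate family (r = 0.998), for SLC3A2 UBALD2 (r = 0.996), and for SLC7A5 PCK2, the mitochondrial enzyme that makes phosphoenolpyruvate (r = 0.999). For SLC38A2 the closest was a predicted gene, BGI_novel_G001756 (r = 0.987). As the libraries fall into 3 separate groups, many genes reach such values, and 1275 genes had r of at least 0.95 with SLC7A5, compared with 8 for SLC38A2. Among the 10 genes, SLC38A1 and SLC7A1 were the most alike (r = 0.997), whereas the closest member to SLC38A2 was SLC7A11 with r = 0.804.

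GC content differed widely among the 10 genes, from 38.4% for SLC38A2 and 38.6% for SLC7A11 to 60.9% for SLC6A9 and 60.6% for SLC7A5. That correction covered only the 11380 tested genes with a GC value, and fewer genes were then called lower in the whole table. How much of this came from the genes left out was not tested. With the correction, the log2 fold changes of all 10 genes kept their sign against si-NC. That of SLC7A5 was then -0.58 and -0.93, that of SLC43A1 -0.68 and -0.81, and that of SLC1A5 -0.22 and -0.60. SLC7A11, which has a low GC content, was at -0.53 and -0.68 after the correction, and SLC38A1 at -0.85 and -1.09. The same 7 and 8 genes as before met the criteria.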

How the data were processed

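The authors sequenced 9 libraries on the BGISEQ-500 platform and deposited 1 table with the FPKM of each gene in each library, rounded to 2 decimals. The submitters' processing notes name Bowtie2 and GRCh37.p13; the counting tool is not given in the sources used here. The table held 19930 genes with values (4 further lines had none). Log2 ratios, P values and Q values of the authors' own comparisons were deposited too and were not used. Groups were taken from the sample titles.

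Genes averaging 1 FPKM or more across the 9 libraries entered limma version 3.58.1 (R 4.3.3, lmFit and eBayes with a trend) on log2(FPKM + 1), with 1 coefficient per group and 1 shared estimate of the spread. A call used the study's limits: 1.3-fold or more, and an unadjusted P no higher than 0.05. The fold was taken on log2(FPKM + 1), where changes at low levels come out smaller than in FPKM. Some genes past 1.3-fold in mean FPKM were therefore not called, such as CTNS, which was 1.36-fold lower with si-LINC00673-1. Benjamini-Hochberg adjusted P values were taken over all 12884 tested genes. The fit was also run on simulated data with known changes, and the outcome of that run is not given here. Single values per library (the summed FPKM and ratios) were compared by exact two-sided permutation tests. The depth came from the spacing of low FPKM values, after 80 to 100 bases were taken off each transcript length. It covers counting error only. Fragments of each gene were estimated with its longest transcript, so they would be fewer if shorter transcripts were expressed. GC content was the median over the GENCODE v29 transcripts of a gene, available for 11380 (88.3%) of the tested genes. Tables and figures were made with Python 3.11.15, pandas 2.3.3, numpy 2.4.6, scipy 1.17.1 and matplotlib 3.10.9.

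The 10 members and the gene lists were chosen with earlier results of these data known. All members were named, and from each list up to 6 genes with the largest mean absolute log2 fold change among those called in the same direction with both siRNAs. Most alike genes were named for the 4 members with the highest level. Libraries with the same suffix were not treated as pairs, since the study's methods use no pairing and nothing says that they share a culture or day. They also did not deviate from their group means together (r from -0.239 to 0.104). The alternatives were another added value, other expression filters and fold limits, an adjusted P, only the groups compared, a replicate block, scaling by the median ratio, a GC correction and each library left out in turn. LINC00673 was not analysed here, and 1 marker of the labelled line is not reported here.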

Additional observations from a re-analysis of the deposited data

How the results depend on the processing

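The members called with si-LINC00673-1 and si-LINC00673-2 against si-NC numbered 7 and 8 with an added value of 0.1 FPKM, no expression filter, only the groups compared, the median ratio scaling, the GC correction, an adjusted P and a replicate block. With that paired fit the calls over all genes were 3449 and 4400, compared with 3436 and 4385, and no member's call was changed. When each library was omitted, the counts were 7 to 8 and 8 to 8, and 0 to 0 between the siRNAs. A minimum of 5 FPKM left 4 and 5 members called, since fewer genes were tested, and a 2-fold limit left 2 and 4. Leaving out SLC6A9, a choice made after seeing the data, left 6 and 7. Between the siRNAs, 1 member (SLC6A9, -0.68) was called with 0.1 FPKM added and 8 without a fold limit. With the median ratio scaling, the differences of SLC38A2 and SLC43A1 between the siRNAs reversed to 0.042 and 0.012, and the cause was not tested.

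The fall of the summed FPKM with si-LINC00673-2 was -253.3 after scaling, compared with -308.0, and the left-out libraries gave -228.6 to -212.7 and -317.0 to -301.1. The log2 ratio of SLC3A2 to SLC7A5 and SLC7A11 alone was higher by 0.53 and 0.95, as the other light chains no longer entered it. The mean log2(FPKM + 1) of the members was lower by 0.65 and 0.84.

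Over all genes, scaling moved the calls with si-LINC00673-2 from 2974 lower and 1411 higher (67.8% lower) to 2246 and 1975 (53.2% lower). The GC correction moved those with si-LINC00673-1 from 2004 and 1432 (58.3% lower) to 1020 and 1554 (39.6% lower), and those with si-LINC00673-2 to 2030 and 1396. It covered only the 11380 tested genes with a GC value, so these counts are not over the same genes as before. Without a fold limit 8724 and 9396 genes were called, with a 2-fold limit 366 and 604, and with a minimum of 5 FPKM 2211 and 2714. Between the siRNAs the 984 calls became 6697, 40 and 547 in the same order, and 1656 with 0.1 FPKM added.

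Depth limits SLC6A9 most, at 22 to 32 fragments per si-LINC00673-2 library. Identity of the cells, the degree of knockdown and the origin of replicates were not tested here. FPKM are relative to each library's total, so that absolute RNA amounts cannot be told from them.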
